A study of Sus scrofa with 9 samples.

Results

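EDDM3B and C7H6orf52 are 2 of the 6765 genes to which the porcine Affymetrix GeneChip assigned at least 1 probe set under a single symbol. They were chosen by their measured signals, because both gave very low ones in the mammary gland before farrowing and much higher ones on the day after it. EDDM3B had 1 probe set and C7H6orf52 had 2, so 3 of the 24123 probe sets on the array belong to these genes, and 2 of the 3 were bright enough to be tested. The rise to day 1 chose the genes, so it is described below without a test. Both genes lie on pig chromosome 7 in the RefSeq gene table of assembly Sscrofa11.1, in separate neighbourhoods.

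Mammary tissue had been taken by biopsy from 6 Large White sows, each sampled in late pregnancy (day -17 relative to parturition), at the start of lactation (day 1) and in established lactation (day 17), with a tolerance of 2 days beside the first and last of these. Equal volumes of total RNA from 2 sows had been pooled for each array, which gave 9 arrays, 3 pools on each of the 3 days. All sows were of 1 breed on a corn and soybean meal diet, no treatment was applied, and days differ in stage of reproduction alone as far as the labels say. The pools are numbered 1 to 3 on each day, and the labels leave unsaid whether pools of equal number hold the same animals.

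EDDM3B encodes a small secreted protein that in humans is best known from the epididymis, where it is added to the fluid that bathes maturing sperm. Its gene sits inside the cluster of the ribonuclease A superfamily, whose products are secreted and include the pancreatic-type RNASE1, RNASE4 and angiogenin (ANG). RNASE4 and angiogenin are known constituents of bovine milk. C7H6orf52 is the pig counterpart of the human open reading frame C6orf52, for which no function is established. The secretory cells of the mammary gland begin copious milk secretion around parturition, when transcripts of milk proteins accumulate, and fat and connective tissue make up a smaller share of the gland.

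The deposited value of a probe set on an array is its MAS5 signal, a linear intensity scaled so that every array has the same trimmed mean of about 500. The array's 40th percentile, 82.1 to 94.2 over the 9 arrays, served as the level below which a signal was called dim, and a probe set was tested if it reached that level on at least 3 arrays. Over endogenous probe sets the lowest signal was 0.0632 and the highest 83677. All 7 milk protein genes listed as markers of the tissue were measured. Of these, 6 rose on day 1 relative to day -17, where 24.1% of tested probe sets were called in either direction, with a median log2 difference of 1.81 beside -0.065 over all 15519 tested probe sets. Their summed signal ran from 216822 to 304309 on day 1, against 60484 to 85934 on day -17.

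EDDM3B was close to the bottom of the array in every pool before farrowing and in the upper part of it in every pool afterwards. On day -17 its signal was 4.17, 2.27 and 3.30 in pools 1, 2 and 3. On day 1 it was 1111, 583 and 960. On day 17 it was 938, 1439 and 540. All 6 lactation values lay far above all 3 values of late pregnancy, and the values of the lactation days overlapped. On the arrays of day -17 only 3.40% to 7.01% of endogenous probe sets had a signal at or below that of EDDM3B, whereas on day 1 the share was 74.9% to 85.5% and on day 17 it was 74.3% to 89.1%.

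The fitted difference of EDDM3B between day 1 and day -17 was 8.08 ± 0.40 log2 units (limma, standard error, n = 3 pools per day), the largest among the 5670 tested genes and among all 15519 tested probe sets. Of these probe sets, 24.1% were called in either direction by limma at an adjusted p under 0.05, and nothing is read from EDDM3B's place among them because that contrast chose the gene. The size of the difference depended on how a near-zero signal is treated. With 16 added to every signal it was 5.50 ± 0.34, a 45.2-fold difference on that scale, and with every signal raised to at least the 40th percentile of its array it was 3.26 ± 0.34, a 9.57-fold difference. On this last scale the day -17 values are all at the floor, so it sets the geometric mean of day 1 against the dim level.

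**Figure D1:**
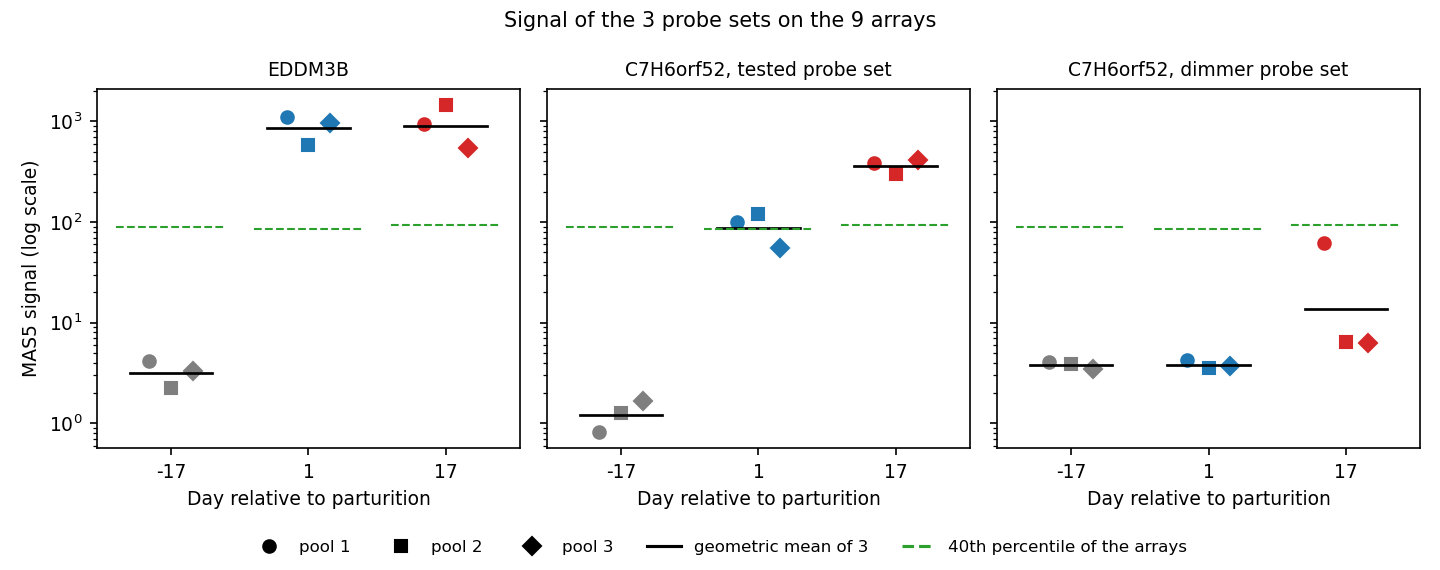
MAS5 signal (vertical axis, log scale) of the EDDM3B probe set and of both C7H6orf52 probe sets on days -17, 1 and 17, with 1 symbol per pool, black bars at the geometric mean of the 3 pools and green dashes at the mean 40th percentile of the arrays of that day. EDDM3B stood at 540 or more in all 6 lactation pools, the tested C7H6orf52 probe set was near the dashes on day 1 and above them on day 17, and its dimmer probe set exceeded 7 in 1 pool only.

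C7H6orf52 took a different course after farrowing. Its tested probe set had signals of 0.827, 1.26 and 1.65 in pools 1, 2 and 3 on day -17. It had 100.1, 121 and 54.6 on day 1, and 388, 301 and 409 on day 17. The 3 days did not overlap, and the order was the same at both steps, lowest in late pregnancy and highest at day 17. On day 1 this probe set still lay around the dim level: the array's 40th percentile was exceeded in pools 1 and 2 but not in pool 3. By day 17 it was above 62.8% to 68.9% of the endogenous probe sets of its array, against 33.5% to 45.8% on day 1.

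The fitted difference of C7H6orf52 between day 1 and day -17 was 6.18 ± 0.60 log2 units, the 7th largest among tested genes. Most of it lay below the dim level. With 16 added to every signal it was 2.59 ± 0.30, a 6.02-fold difference, and with signals raised to the 40th percentile it was 0.16 ± 0.19. The label of a gene switched on by day 1 therefore rests, for C7H6orf52, on the distance between signals that are all dim or nearly so, and a signal clearly above the dim level in all 3 pools was seen on day 17 only. Against day -17 the day 17 difference was 8.24 ± 0.60, and 2.03 ± 0.19 with signals raised to the 40th percentile. EDDM3B gave 8.16 ± 0.40 and 3.34 ± 0.34 for the same contrast. In that contrast 46.5% of tested probe sets were called in either direction. It shares its day -17 arrays with the rise that chose the genes, so it too is given without a test.

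The second C7H6orf52 probe set did not follow the first. It had 4.10, 3.85 and 3.47 on day -17 and 4.23, 3.55 and 3.74 on day 1, so the days overlapped where the tested probe set differed by over 6 log2 units. On day 17 it had 61.2, 6.37 and 6.33. All 3 exceeded the earlier values, by a wide margin in pool 1 only, and none reached the dim level of 90.7 to 94.2 on those arrays. With no filter on dim probe sets its day 17 against day 1 difference was 1.82 ± 0.93 (limma adjusted p = 0.268), beside 2.06 ± 0.49 for the first probe set in that fit. The step of C7H6orf52 at farrowing was thus seen by 1 of its 2 probe sets.

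From day 1 to day 17 EDDM3B showed no detectable difference, while C7H6orf52 rose. This is the contrast that did not choose the genes, although it shares its day 1 arrays with the one that did. The mean EDDM3B signal was 973 ± 451 on day 17 and 884 ± 272 on day 1 (SD, n = 3 each). The log2 difference was 0.077 ± 0.40 (limma adjusted p = 0.918), with a 95% interval of -0.81 to 0.97, so anything between a 0.570-fold and a 1.95-fold level on day 17 remained possible. The direction itself was not settled: it turned to -0.26 without pool 2 of day 17, to -0.20 without pool 2 of day 1, and to -0.80 (limma adjusted p = 0.110) when arrays were scaled to their E. coli control transcripts.

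C7H6orf52 had a mean signal of 366 ± 57.1 on day 17 and 91.8 ± 33.8 on day 1 (SD, n = 3 each). The log2 difference was 2.06 ± 0.60 (limma adjusted p = 0.0479), a 4.17-fold rise with a 95% interval of 1.65 to 10.6. Its probe set reached the 40th percentile in pools 1 and 2 of day 1 and in all 3 pools of day 17. It therefore needed its day 17 arrays to be tested, which favours a higher day 17. With no filter the difference was the same (limma adjusted p = 0.0305). In this contrast 13.6% of tested probe sets were called, 7.02% as higher on day 17, and all 3 day 17 values exceeded all 3 day 1 values in 18.2% of them. The call was narrow. Leaving out any of the 6 pools of day 1 or day 17 ended it (limma adjusted p = 0.0884 to 0.164, differences of 1.72 to 2.30), as did centring arrays on their median (0.0534), scaling to the E. coli controls (0.0991, difference 1.19) and a filter at the 60th percentile (0.192), whereas raising dim signals to the 40th percentile gave 1.86 ± 0.19 and kept it. With the pool number as a block, the limma adjusted p was 0.0644 for a fixed and 0.035 for a random block.

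The courses of the 2 genes were also compared within each array, where a common scaling cancels. The log2 signal of C7H6orf52 minus that of EDDM3B ran from -2.26 to -0.40 on day 17 and from -4.13 to -2.27 on day 1. The groups were separated by a narrow gap, and their means differed by 1.98. With 16 added to every signal they overlapped, at -2.20 to -0.39 on day 17 and -3.79 to -2.13 on day 1, and the exact permutation p was 0.2. On the signals as deposited a two-sided exact permutation test gave p = 0.1, the smallest value that 3 against 3 arrays allow, so this design could not pass a threshold of 0.05. This comparison was chosen after the values were seen.

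The spread between pools of 1 day was wider for EDDM3B in lactation than for C7H6orf52 at its highest. The highest EDDM3B pool was 2.66 times the lowest on day 17 and 1.91 times on day 1. For the tested C7H6orf52 probe set these ratios were 1.36 on day 17 and 2.21 on day 1. The pool with the most EDDM3B was pool 2 on day 17 and pool 1 on day 1, so no pool number was highest on both lactation days.

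Few of the tested probe sets started as low as these 2, because the filter left out most that did. On the day -17 arrays 3.40% to 7.01% of endogenous probe sets lay at or below EDDM3B. Among all 15519 tested probe sets, 5 were below the 10th percentile of endogenous probe sets on all 3 day -17 arrays, and the only 2 of the 5 with a gene symbol here were EDDM3B and C7H6orf52. A probe set so low passed the filter only through its lactation arrays. The other 3 averaged 3.32 to 4.92 on day -17, 39.4 to 71.3 on day 1 and 84.5 to 166 on day 17. Requiring in addition a place above the 70th percentile on all 3 day 1 arrays left EDDM3B alone, and the opposite course, from above the 70th percentile on day -17 to below the 10th on day 1, was shown by 0 probe sets. These percentiles were set after the values were seen and describe the list without a test.

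Among genes that were dim in all 3 day -17 pools, 136 besides the 2, the largest rises to day 1 belonged to MUC4, SLC6A14, LBP, TSPAN2, LRG1 and NPG4. MUC4, a membrane mucin of the apical surface, averaged 25.7 ± 6.58 on day -17, 2779 ± 284 on day 1 and 5244 ± 1866 on day 17 (SD, n = 3 each). SLC6A14, which takes up amino acids with sodium and chloride, averaged 21.3 ± 15.9, 1848 ± 841 and 2311 ± 729 in that order of days. LBP, which binds bacterial lipopolysaccharide, averaged 40.9 ± 9.24, 1790 ± 668 and 1927 ± 230. The log2 differences between day 1 and day -17 were 6.79 for MUC4, 6.71 for SLC6A14 and 5.39 for LBP. TSPAN2, a tetraspanin, and LRG1, a secreted leucine-rich glycoprotein, differed by 3.91 and 3.79. NPG4, which encodes the antimicrobial peptide protegrin 4, was dim on 2 of the 3 day 1 arrays and just above the 40th percentile in pool 2 (88.6), with a mean of 71.7 ± 14.7 on day 1 against 10.3 ± 13.3 on day -17, and its difference of 3.68 became -0.043 with signals raised to the 40th percentile.

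**Figure D2:**
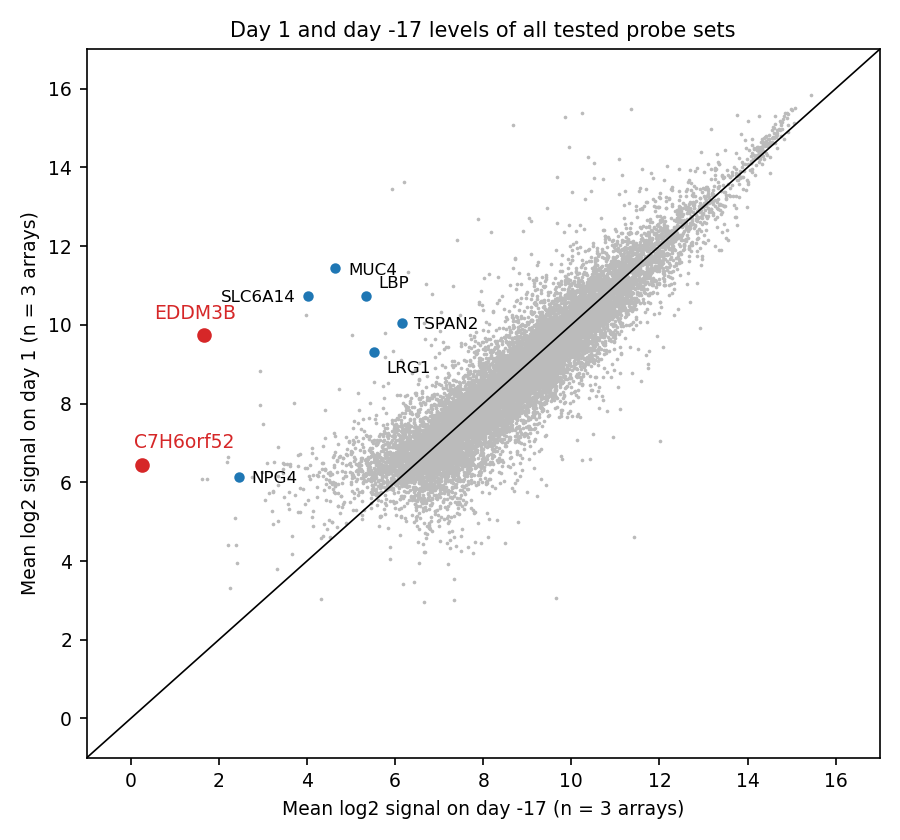
Mean log2 signal on day 1 (vertical axis) against mean log2 signal on day -17 (horizontal axis), each over 3 arrays, for the 15519 tested probe sets (grey), with EDDM3B and C7H6orf52 in red, the 6 other dim genes with the largest rise in blue, and a line of equal levels. The red points lie at the left edge of the points, at day -17 means of 1.65 for EDDM3B and 0.26 for C7H6orf52, and EDDM3B lies farthest above the line.

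The 5 tested genes near EDDM3B on chromosome 7 are described here for their own courses. That their differences were smaller than that of EDDM3B is no result, because EDDM3B was chosen for its rise. Of the 20 genes nearest to it in the order of the gene table, 11 are protein-coding and 8 are transfer RNA genes, and 6 had a probe set, of which 5 were tested. RNASE4, its neighbour on one side, had high signals throughout: 13712, 5365 and 7137 on day -17, 15298, 5842 and 6684 on day 1, and 5240, 8094 and 6607 on day 17. The 3 days overlapped, and pool 1 was the highest on day -17 and day 1 but the lowest on day 17. Its log2 differences were 0.062 ± 0.39 for day 1 against day -17 (limma adjusted p = 0.926) and -0.36 ± 0.39 for day 17 against day 1 (0.569). The first turned negative without pool 2 or 3 of day -17 or pool 1 of day 1 (-0.37 to -0.026) and with quantile normalization or E. coli scaling. The second became 0.067 without pool 1 of day 1, and passed the threshold with E. coli scaling (-1.24, adjusted p = 0.0225). RNASE6, the neighbour on the other side, had no probe set with its identifier in the annotation used here.

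ANG, which encodes angiogenin, a ribonuclease that promotes vessel growth, is the gene beyond RNASE4. In humans and mice ANG and RNASE4 share their promoter region. ANG had 2398, 2030 and 2297 on day 1, against 1601, 864 and 1246 on day -17, and the days did not overlap. It rose by 0.90 ± 0.24 (limma adjusted p = 0.0218), in a contrast where 24.1% of tested probe sets were called in either direction. That call was lost without pool 2 (adjusted p = 0.0657) or pool 3 (0.0546) of day -17, without pool 3 of day 1 (0.0685) and with E. coli scaling (0.147). On day 17 it had 1662, 2747 and 2334, which overlapped day 1 (-0.024 ± 0.24, limma adjusted p = 0.958, but -0.90 and 0.00944 with E. coli scaling). Like EDDM3B, it was higher on day 1 than on day -17 and not detectably different between the lactation days in the fit of the deposited scaling, at a far smaller log2 difference.

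RNASE1, 2 genes from EDDM3B on the other side, had 118, 137 and 214 on day 1 and 89.7, 123 and 118 on day -17, which overlapped (0.47 ± 0.32, limma adjusted p = 0.305). On day 17 it fell to 62.4, 79.7 and 49.6, below the dim level on all 3 arrays, a difference of -1.27 ± 0.32 against day 1 (adjusted p = 0.0283). This call was lost without pool 2 (0.0573) or pool 3 (0.0959) of day 1 or pool 1 (0.0678) or pool 3 (0.084) of day 17, with signals raised to the 40th percentile (0.0587) and with the 6 arrays of those days alone (0.0545). Farther away, NDRG2, a gene of the N-myc downstream-regulated family, was lower on day 1 than on day -17 (-1.41 ± 0.26, adjusted p = 0.00408), and METTL17, a mitochondrial methyltransferase-like protein, did not pass (0.56 ± 0.21, 0.0776, but 0.014 without pool 3 of day -17 and 0.0432 after quantile normalization). From day 1 to day 17 NDRG2 differed by -0.98 ± 0.26 (0.032), which was lost without pool 1 (0.0711) or pool 2 (0.0758) of day 1, without pool 2 (0.102) or pool 3 (0.108) of day 17 and with a constant prior variance (0.0519), while METTL17 gave 0.53 ± 0.21 (0.117). SLC39A2, a zinc transporter, was too dim to be tested.

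C7H6orf52 had 2 measured genes among its 20 neighbours, both on the same side. PAK1IP1, the adjacent gene, which encodes a protein that binds and restrains the kinase PAK1, had 435, 502 and 523 on day 1 and 461, 455 and 492 on day -17, which overlapped (0.048 ± 0.17, limma adjusted p = 0.862). It was lower on day 17, with 282, 402 and 302, a difference of -0.58 ± 0.17 from day 1 (0.0482), opposite in sign to that of C7H6orf52. This call ended without any of the 3 day -17 pools, pools 2 or 3 of day 1, or pools 1 or 3 of day 17 (adjusted p = 0.059 to 0.141), and after quantile normalization (0.0644), with signals raised to the 40th percentile (0.0562), with dim probe sets kept in (0.0705), with a constant prior variance (0.0568) or with those 6 arrays alone (0.0869). LOC100517166, the next gene, had 3689, 4726 and 4867 on day 1 against 3339, 3192 and 3158 on day -17. It rose by 0.44 ± 0.12 (0.0264), a call lost without pool 2 (0.0699) or pool 3 (0.078) of day -17 or pool 2 (0.0815) or pool 3 (0.0896) of day 1, and after quantile normalization (0.051), E. coli scaling (0.921), with a constant prior variance (0.0569) or with the 6 arrays alone (0.069). Between day 17 and day 1 it differed by 0.25 ± 0.12 (0.197), which turned to -0.62 (0.00096) with E. coli scaling.

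Counted over both neighbourhoods, 2 of the 7 tested neighbours rose and 1 fell on day 1 relative to day -17, where 24.1% of all tested probe sets were called. On day 17 relative to day 1, 0 rose and 3 fell (NDRG2, RNASE1 and PAK1IP1), where 13.6% were called. At an unadjusted limma p under 0.05 METTL17 was higher as well in both contrasts (0.0232 and 0.0292). The median log2 difference of the 7 was 0.44 in the first contrast and -0.36 in the second, beside -0.065 and -0.0092 over all tested probe sets. Of 17 listed members of the ribonuclease A superfamily, 4 had a probe set. Besides the 3 above, RNASE10 was too dim to be tested, averaging 39.6 on day -17, 19.5 on day 1 and 69.6 on day 17.

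**Figure D3:**
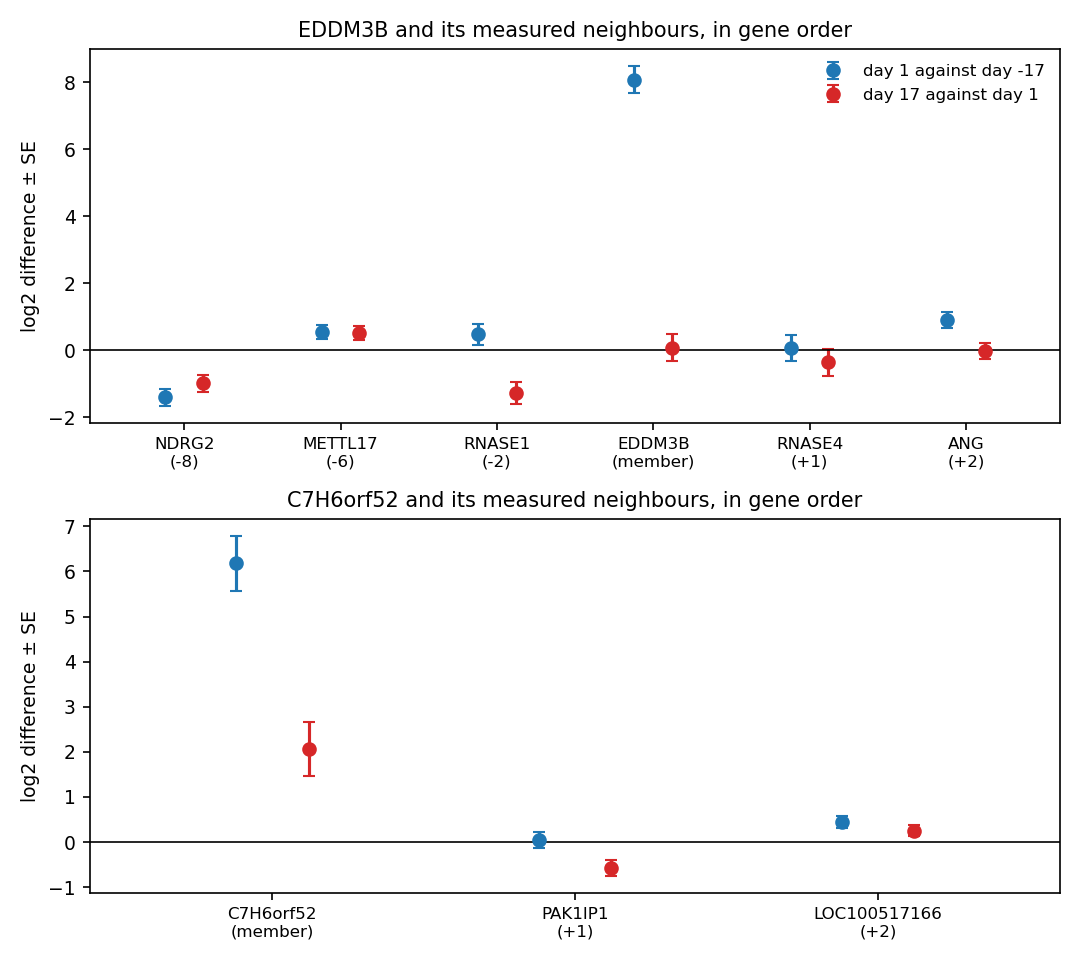
Log2 difference ± standard error (vertical axis, limma, n = 3 pools per day) of EDDM3B (top) and C7H6orf52 (bottom) and of their tested neighbours in gene order, for day 1 against day -17 (blue) and day 17 against day 1 (red), with the number of genes away in brackets. Every neighbour lies between -1.41 and 0.90, against 8.08 for EDDM3B and 6.18 for C7H6orf52 in the blue contrast, which chose these genes.

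The genes whose pattern over the 9 arrays was most like that of EDDM3B were PGLYRP1, MUC4, PGAM2, SL44-1, SLC34A2 and ARL1, with Pearson correlations of log2 signals of 0.992 to 0.984 among 5668 genes. Such values are a description: the arrays fall into a group of late pregnancy and a group of lactation, and 102 genes exceeded 0.95. PGLYRP1, which binds bacterial peptidoglycan, stood at 999 ± 208 on day -17, 23443 ± 2306 on day 1 and 22711 ± 5876 on day 17 (SD, n = 3 each). ARL1, a small GTPase of the Golgi, stood at 1117 ± 90.9, 4000 ± 797 and 3747 ± 348 in that order of days. PGAM2, a phosphoglycerate mutase best known from muscle, stood at 53.5 ± 8.8, 352 ± 60.9 and 413 ± 102. SLC34A2, a sodium phosphate cotransporter, averaged 839, 14261 and 22655. In these genes, as in EDDM3B, most of the difference lay between day -17 and day 1, a likeness that comes with choosing them by correlation.

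For C7H6orf52 the 6 most like genes were INSIG1, FKBP4, PIGR, ACSL3, WFDC1 and TLR2, with correlations of 0.991 to 0.987, and 152 genes exceeded 0.95. Each had its lowest mean on day -17 and its highest on day 17, a likeness to C7H6orf52 that comes with choosing them by correlation. INSIG1, which holds back sterol-sensing proteins in the endoplasmic reticulum, averaged 1425 ± 402 on day -17, 10783 ± 774 on day 1 and 20363 ± 4884 on day 17. PIGR, the receptor that carries immunoglobulin A and M across epithelia, averaged 1335 ± 195, 19784 ± 4002 and 52192 ± 2717. ACSL3, a long-chain acyl-CoA synthetase, averaged 1480 ± 203, 18013 ± 3795 and 39712 ± 2176. TLR2, a receptor for bacterial lipoproteins, averaged 291 ± 93.7, 2522 ± 383 and 5022 ± 373.

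Both lists of 6 depended on the settings. With 16 added to every signal 5 of the 6 genes stayed among the first 6 for EDDM3B and 0 of 6 for C7H6orf52. With signals raised to the 40th percentile these counts were 3 and 0, and the correlations of the original 6 were 0.961 to 0.985 for EDDM3B and 0.701 to 0.734 for C7H6orf52. With E. coli scaling 3 of 6 stayed for EDDM3B and 2 of 6 for C7H6orf52, and the correlations of the original 6 were 0.790 to 0.989 and 0.918 to 0.985. The correlation between EDDM3B and C7H6orf52 themselves was 0.953, and 0.513 with signals raised to the 40th percentile.

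**Figure D4:**
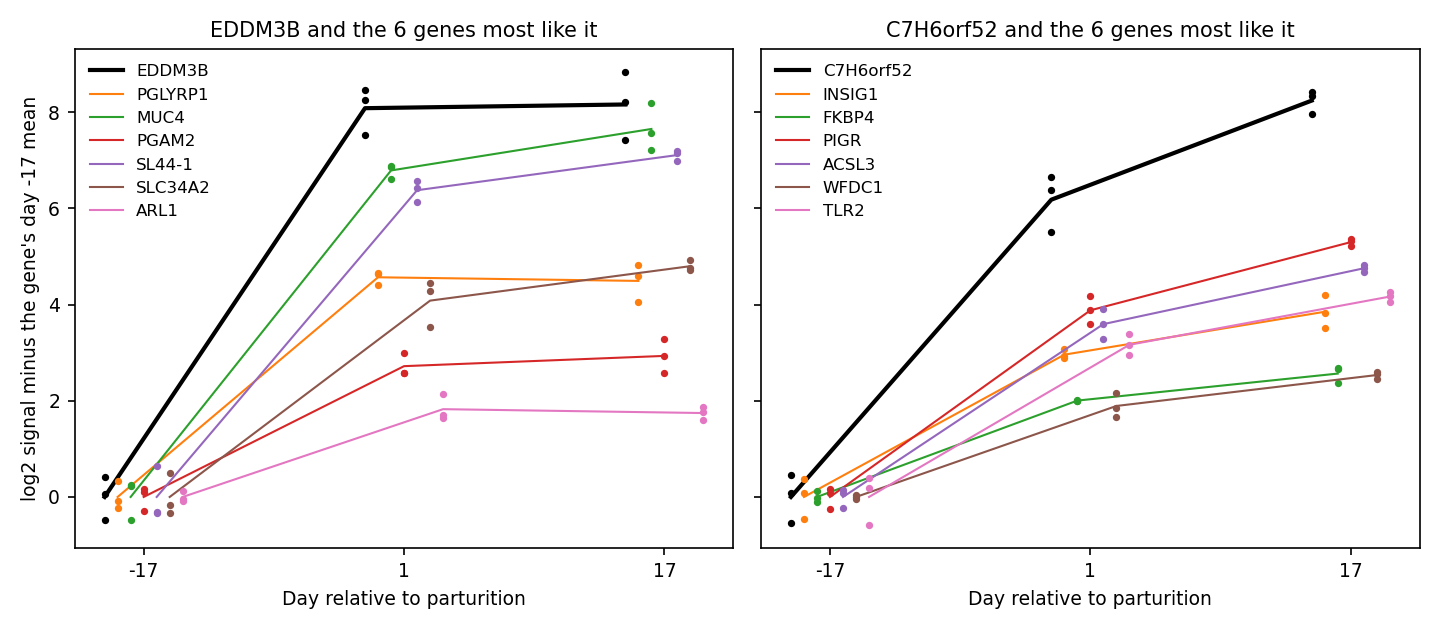
Log2 signal minus the gene's own day -17 mean (vertical axis) on days -17, 1 and 17 for EDDM3B (left, black) and C7H6orf52 (right, black) and the 6 genes most like each by Pearson correlation (colours), with points for pools, offset sideways for legibility, and lines through day means. On the left the lines of EDDM3B, PGLYRP1 and ARL1 are nearly level after day 1, and on the right all lines go on upwards to day 17.

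Some markers of other cells differed between the days beside these genes. In whole tissue a smaller number of cells of a type cannot be told apart from less RNA per cell. The part of any of these lists in the course of EDDM3B or C7H6orf52 was not tested. On day 1 relative to day -17, with 24.1% of tested probe sets called, 4 of 10 tested luminal epithelial genes rose and 0 fell. Those that rose were EPCAM, CLDN3, CLDN4 and MUC1. Of the 6 that did not pass, CDH1, EHF and ELF3 differed by 0.089 to 0.86. The keratins KRT8 (-1.11), KRT18 (-1.33) and KRT19 (-0.45) were lower in mean. The summed signal of the 11 with a probe set was 32441 to 50541 on day 1 and 17291 to 35985 on day -17. EPCAM was the largest part of it on day 1, averaging 17738, against 8882 on day -17. Of 7 tested adipocyte genes 0 rose and 2 fell (RBP4 and GPD1), and 5 did not pass. Of the 5, FABP4 (0.65) and LPL (0.45) were higher in mean, and ADIPOQ (-2.92), LEP (-0.79) and PPARG (-0.38) were lower. The summed signal of the 7 was 18666 to 24977 on day 1 and 9242 to 24544 on day -17. Of 5 tested fibroblast genes 0 rose and 2 fell (LUM and THY1), with a summed signal of 16311 to 41688 on day 1 and 36683 to 50117 on day -17. Of 4 tested T and NK cell genes 0 rose and 2 fell (CD8A and KLRK1), with a sum of 327 to 519 on day 1 and 604 to 949 on day -17. Of 5 tested myoepithelial genes 0 rose and 0 fell, and of 5 endothelial genes 0 rose and 1 fell (VWF). Among 3 tested macrophage genes 1 rose (CD14) and 0 fell, and among 2 plasma cell genes 1 rose (XBP1) and 0 fell. Among 3 tested erythrocyte genes 0 rose and 1 fell (HBB).

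On day 17 relative to day 1, the contrast in which C7H6orf52 rose and 13.6% of tested probe sets were called, 1 gene of each of several lists was higher. JCHAIN, which joins the units of polymeric immunoglobulins, rose by 1.76 ± 0.22 (limma adjusted p = 0.0018), and the sum of the 2 measured plasma cell genes was 45667 to 49383 on day 17 and 22338 to 27518 on day 1. EPCAM, an adhesion molecule of epithelia, rose by 0.66 ± 0.19 (0.0438), with a luminal sum of 50875 to 55548 on day 17 and 32441 to 50541 on day 1. The other 9 tested luminal genes did not pass. LPL, which is listed with adipocytes and is also made by lactating mammary tissue, rose by 1.31 ± 0.37 (0.0436), with an adipocyte sum of 28979 to 29357 on day 17 and 18666 to 24977 on day 1. The other 6 tested adipocyte genes did not pass, and the median log2 difference of the list was -0.46. LPL and FABP4 made up most of that sum, with FABP4 averaging 15902 on day 1 and 15885 on day 17. MYLK, a myosin kinase of contractile cells, rose by 3.50 ± 0.98 (0.0413), with a myoepithelial sum of 26866 to 37359 on day 17 and 25813 to 33201 on day 1. The MYLK signal was 9.37, 6.84 and 15.7 on day 1, far below the dim level, and 94.4, 115 and 135 on day 17. Only its day 17 arrays reached the dim level, so its place among tested probe sets and its call rest on the same arrays. The other 4 tested myoepithelial genes did not pass, and the list had a median of 0.20. Of the milk protein genes 5 of 7 were higher as well, and 0 of the tested fibroblast, T and NK cell and neutrophil genes were called. Of the 9 fits that each left out 1 pool, 0 ended the call of JCHAIN, 6 ended those of EPCAM and MYLK and 7 that of LPL. With E. coli scaling EPCAM turned to -0.22, LPL lost its call (0.43) and the 5 milk protein genes stood at -0.12 to -0.034, while JCHAIN (0.88) and MYLK (2.63) kept theirs.

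PGLYRP1, the gene most like EDDM3B, was also listed as a neutrophil marker, and it was the only 1 of the 2 tested neutrophil markers to rise on day 1 relative to day -17: S100A12 did not pass, and S100A8 and S100A9 were too dim to be tested. The summed neutrophil list, almost all of it PGLYRP1, was 21261 to 25161 on day 1 and 1081 to 1427 on day -17.

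Other genes known for secretion in the epididymis took various courses. Of 20 listed, 9 had a probe set and 6 were tested, and on day 1 relative to day -17, 1 rose, 0 fell and 5 did not pass, beside 24.1% of all tested probe sets called, with a median log2 difference of -0.52. The 1 that rose was NPC2, a cholesterol-binding protein of lysosomes made in many tissues, with a mean signal of 8160 on day 1 and 4124 on day -17. CRISP1 and GPX5, which are more restricted to the epididymis, were too dim to be tested, with mean signals of 8.79 and 9.65 on day 1 and 17.0 and 11.8 on day -17. On day 17 CRISP1 averaged 15.9, and GPX5 had 13.6, 72.6 and 63.9, below the dim level in each pool and overlapping day 1. LCN5, an epididymal lipocalin, had 67.2, 32.8 and 34.0 on day -17, 106, 71.7 and 59.2 on day 1, and 198, 135 and 209 on day 17. Its values on day 17 were above all others, and it differed by 0.86 ± 0.39 for day 1 against day -17 (limma adjusted p = 0.134), by 1.21 ± 0.39 for day 17 against day 1 (0.0656) and by 2.07 ± 0.39 for day 17 against day -17 (0.00201). In that last contrast 46.5% of all tested probe sets were called. Of the 6 tested genes 2 rose in it (NPC2 and LCN5) and 3 fell (WFDC2, DEFB1 and CLU), with a median log2 difference of -1.32. On day 17 relative to day 1, 1 of the 6 rose (NPC2) and 1 fell (WFDC2), beside 13.6% of all tested probe sets called. The rise of NPC2 ended in 6 of the 9 fits without 1 pool and turned to -0.17 with E. coli scaling, and the fall of WFDC2 ended in 4 of the 9.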

How the data were processed

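Each deposited value is a linear intensity of a probe set, which the authors computed by MAS5, according to the submitters' processing notes, which name no version. No value was 0 or negative, and detection calls were not used here. Of the 24123 probe sets, 124 controls were left out of the tests. Symbols came from the platform annotation, in which 10099 probe sets had 1 symbol, 198 several and 13826 none. A gene was represented by its brightest tested probe set. A probe set was tested if at least 3 arrays reached their 40th percentile.

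Log2 signals of the 15519 tested probe sets were fitted with limma 3.58.1 in R 4.3.3 (lmFit, eBayes with an intensity trend, day as the only term, all 9 arrays, 10.3 degrees of freedom with the prior), with two-sided p-values adjusted by Benjamini-Hochberg over all of them. The code was tested on simulated data. The number of arrays limits the precision, and p-values measure the spread between pools of the same 6 sows.

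The members, lists and alternatives were chosen with earlier results of these data known. Named beside the members were the 6 genes most correlated with each, the 6 other dim genes with the largest rise to day 1, the members of the ribonuclease A list and, of the 10 genes nearest on each side, those adjacent or called; METTL17 and SLC39A2 were added after their values were seen. E. coli scaling set each array to the mean of its 21 E. coli control probe sets. Pool numbers were checked by correlating deviations from day means: samples of the same number had 0.235 to 0.506 for day 1 against day -17 and 0.0960 to 0.107 for day 17 against day 1, other pairs -0.387 to 0.113 and -0.0768 to -0.0268. Gene order came from the RefSeq table of Sscrofa11.1. Sequences were not used here.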

Additional observations from a re-analysis of the deposited data

How the results depend on the processing

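EDDM3B between days 17 and 1 passed the threshold under 0 alternatives and turned to -0.80 with E. coli scaling; with single pools left out it ran from -0.26 to 0.45. C7H6orf52 kept its direction there throughout, but lost its call after median centring (2.02), E. coli scaling (1.19) and a filter at the 60th percentile (2.06, standard error 1.05), and ran from 1.72 to 2.30 with single pools left out. Whether pool numbers pair the samples of these days was not settled. Of the 3 same-number correlations 2 were under 0.1, although every same-number pair exceeded every other pair. For day 17 against day -17 same-number pairs had 0.105 to 0.130, and other pairs -0.0739 to -0.0421. With the number as a replicate block C7H6orf52 stood at 2.06 as before (limma adjusted p = 0.0644 with a fixed and 0.035 with a random block), 2743 and 2792 probe sets were called, and no call of a neighbour changed with either block.

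The untested differences depended on dim signals. On day 1 against day -17, EDDM3B gave 5.50 with a pseudocount of 16 and 3.26 with a floor at the 40th percentile, and C7H6orf52 gave 2.59 and 0.16. On day 17 against day -17, EDDM3B gave 5.58, 3.34 and, with E. coli scaling, 6.86, and C7H6orf52 gave 4.46, 2.03 and 6.94. Single pools left out gave 7.85 to 8.36 for EDDM3B and 5.91 to 6.52 for C7H6orf52 on day 1, and 7.82 to 8.53 and 7.97 to 8.47 on day 17. The second C7H6orf52 probe set was not tested, so no mean over probe sets was run.

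On day 1 against day -17, 3736 probe sets were called, and 7085 with E. coli scaling, 1592 with a minimum fold of 2 and 2110 to 4424 with single pools left out. Between days 17 and 1 the number was 2116, and 11114, 820 and 1049 to 2109 under the same alternatives. Between days 17 and -17 it was 7223, and 13156, 3809 and 5887 to 7639. E. coli scaling shifted the median of all log2 differences by -0.43, -0.87 and -1.30 in these contrasts. The share of calls that were higher on the later day was 49.8%, 51.5% and 46.6%, against 11.5%, 1.01% and 3.58% with E. coli scaling, and 64.6% in the first contrast after median centring.

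Some neighbours and dim genes changed direction. With E. coli scaling METTL17 (-0.35) and LOC100517166 (-0.62, called lower) did so between days 17 and 1, and RNASE4 (-0.37) and PAK1IP1 (-0.38) on day 1 against day -17, where RNASE4 also did after quantile normalization (-0.092) and NPG4 with the floor (-0.043). With single pools left out RNASE4 ran from -0.37 to 0.44 and PAK1IP1 from -0.0062 to 0.13 on day 1 against day -17, and RNASE4 from -0.63 to 0.067 and ANG from -0.18 to 0.18 between days 17 and 1. The cause was not tested.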
